A study of Mus musculus with 18 samples.

Results

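The contacts of the mouse Ifng gene in Stat4 knockout cells cultured under Th1 conditions were compared with those in Th2 cells, using 4 of the 18 arrays of the series: 2 labelled Stat4 KO Th1 cells and 2 labelled Th2 cells, all with Ifng as the bait. The members were picked by their titles, with earlier results of these data known. The other 14 arrays cover the Ifng bait in naive CD4 T cells, Th1 cells and 3T3-L1 cells and the Il4 bait in 4 T cell groups, and from these the Th1 and naive arrays are given for reference. All 4 arrays came from primary CD4+ T cells. The Stat4 knockout cells had the treatment label Th1 and the Th2 cells the treatment label Th2, so the comparison changes the Stat4 genotype and the culture condition together. The knockout allele, the strain and the sex of the mice are not given in the labels, and no control in the labels carries the deletion.

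Ifng encodes interferon gamma, the cytokine that defines T helper 1 (Th1) cells, and it is silent in T helper 2 (Th2) cells, which make interleukin 4. STAT4 is the transcription factor that interleukin 12 activates in Th1 cells, where it binds at Ifng and at other Th1 genes, and Th1 cultures that lack it make little interferon gamma. The question was whether Ifng in Th1 cells without Stat4 has the contacts of the silent gene in Th2 cells. In 4C, or circular chromosome conformation capture, DNA lying close to a gene of interest, called the bait, is ligated to it, amplified from it and hybridised to an array together with digested genomic DNA. The value of a probe is the log2 ratio of 4C DNA to genomic DNA, set so that the median probe off chromosome 10, the chromosome of Ifng, is at 0. A higher value means more DNA joined to Ifng.

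Each array held 384942 probes, a median of 78 in a 500-kb bin, and precision is limited by having 2 arrays a group. Coordinates are in mm8, a build inferred from the probe positions. The highest bin averaged over the 10 Ifng arrays, called the bait bin, lay on chromosome 10 from 117500001 to 118000000. It was the highest bin in 7 of the 10 arrays, and in knockout replicate 1 the highest bin was the next one, from 118000001. The arrays read DNA and not RNA, so the loss of Stat4 could not be checked. The design text calls the replicates biological, but no label ties an array to a mouse or a culture. The p-values therefore measure array-to-array spread, part of which may be technical. In both pairs the sorted values of the replicates were nearly the same (99.5% of knockout and 99.9% of Th2 values within 0.011), although r over probes was 0.216 and 0.326. Replicates so alike in their distribution of probe values show little of any difference in scale between arrays. The p-values rest on the spread within groups, so they may leave such differences out. Both knockout arrays had serial numbers beginning with 411 and both Th2 arrays with 401, so serial series, genotype and culture condition cannot be told apart. One reference array stood apart: over all probes, Ifng Th1 replicate 2 had r = 0.347 with the Il4-bait array of Th2 replicate 2 and r = 0.149 with Th1 replicate 1, and counts and correlations that rest on Th1 values are given with and without it. Ifng Th1 replicate 2 and that Il4-bait array both had serial numbers beginning with 402, and Th1 replicate 1 one beginning with 318. Whether the serial series had a part in these correlations was not tested. The 4 knockout and Th2 arrays had no r above 0.185 with any Il4-bait array.

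On chromosome 10, Ifng in Stat4 knockout cells had a weaker signal than in Th2 cells close to the gene and, farther out, a weaker one at some regions and a stronger one at others. Of 5021 bins tested, 62 were called (1.23%), at an adjusted p under 0.05 in limma with Benjamini-Hochberg adjustment, 36 higher in the knockout (0.717%) and 26 lower (0.518%). In all 62 both knockout arrays lay on the same side of both Th2 arrays, as they did in 138 of all 249 bins of chromosome 10 (55.4%) and in 2035 of the 4772 others (42.6%). On chromosome 10 the knockout was lower in 26 of 249 bins (10.4%) and higher in 21 (8.43%), and off chromosome 10 it was higher in 15 of 4772 bins (0.314%) and lower in 0. At an unadjusted p under 0.05, 63 bins were lower and 51 higher on chromosome 10, and 104 were lower and 424 higher elsewhere. Without knockout replicate 1, 112 bins were called, and without Th2 replicate 2, 37, with 14 lower on chromosome 10. The 15 higher bins off chromosome 10 became 72 without knockout replicate 1, 8 without knockout replicate 2, and 6 and 5 without Th2 replicates 1 and 2. The 95% interval of a difference had a median half-width of 0.137 on chromosome 10, and 179 of its 202 bins that were not called had an interval within 0.4 of 0. Called differences there were as small as 0.22, so such an interval can still hold a difference of the size called. The split into higher and lower bins depended on how the arrays were scaled. After the chromosome 10 bins of all arrays were brought to equal SD, 35 were called higher and 8 lower. Quantile normalization gave 14 higher and 8 lower, scaling by the median absolute deviation 3 higher and 1 lower, and leaving out the extreme 1% of probes at each end of an array 48 higher and 1 lower.

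**Figure D1:**
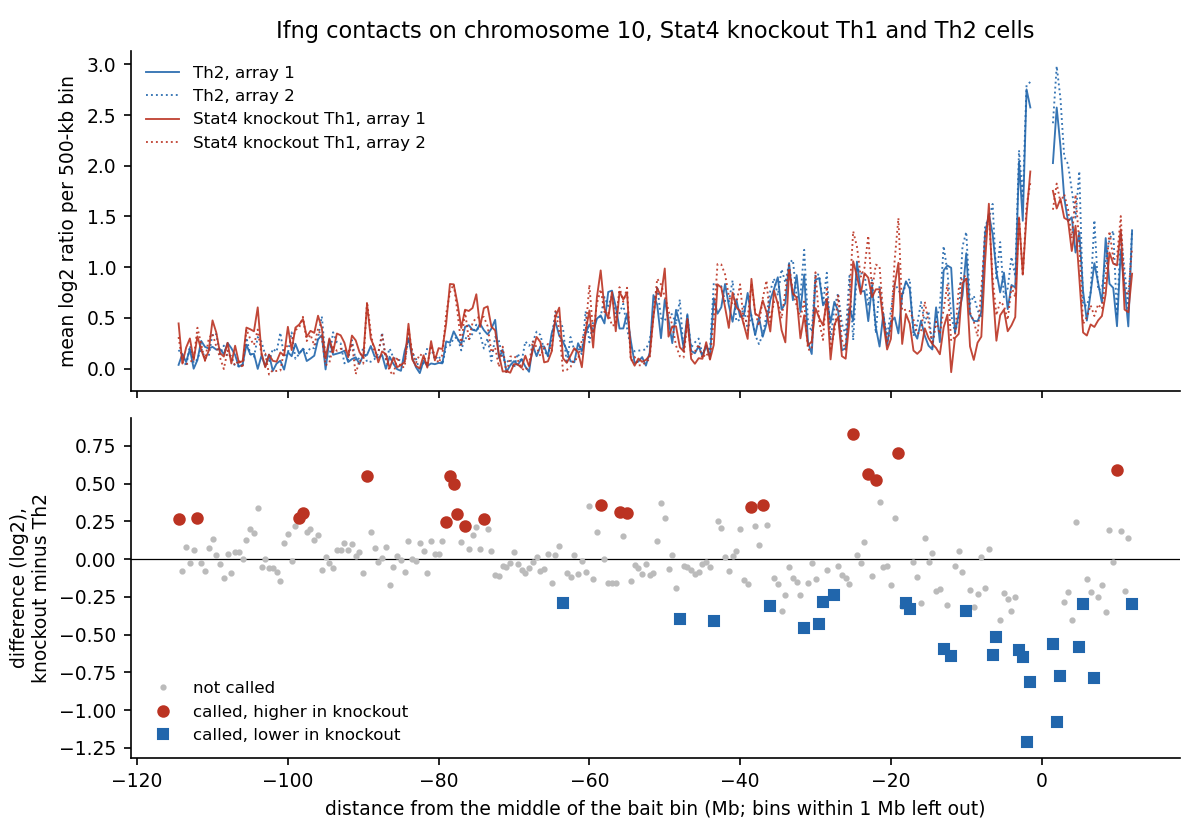
Mean log2 ratio per 500-kb bin of chromosome 10 in the 4 arrays (top) and the difference of the group means with the called bins marked (bottom), against the distance from the bait bin in Mb, negative towards the centromere. The called lower bins reach a difference of -1.21 close to the bait, and the called higher bins reach 0.83 at 24.5 Mb from it on the centromeric side.

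The bait and its neighbourhood gave the largest difference. In the bait bin the log2 ratio was 2.27 and 2.40 in the knockout arrays and 3.86 and 3.60 in the Th2 arrays. It was 2.27 and 3.22 in the Th1 arrays and 3.51 and 2.80 in the naive arrays. The knockout arrays were below both Th2 arrays. Of the reference arrays, Th1 replicate 1 was level with the knockout, and the other 3 lay between the knockout and Th2. Bins within 1 Mb of the bait bin were left out of the fit, so these values carry no test. Of the 25 bins of 100 kb there, 23 had both knockout arrays below both Th2 arrays and 0 had them above. These neighbouring bins share the same arrays, and no share over all 100-kb bins was taken. The count therefore restates the lower level and is not separate evidence.

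The signal within 1 Mb was also flatter in the knockout than in Th2. Its 100-kb bins lay between 1.68 and 2.48 in replicate 1 and between 1.70 and 2.71 in replicate 2. Th2 bins lay between 1.82 and 4.10 and between 2.25 and 4.23. The SD over these bins was 0.192 and 0.226 in the knockout arrays and 0.627 and 0.406 in the Th2 arrays. It was 0.311 and 0.885 in the Th1 arrays and 0.283 and 0.302 in the naive arrays. Of the 392 probes there, 11% and 14.0% were above a log2 ratio of 3 in the knockout arrays, against 72.2% and 68.1% in the Th2 arrays. The share was 10.71% and 44.64% in the Th1 arrays and 72.45% and 40.05% in the naive arrays. The highest probe of the whole array stood at 4.46 and 4.47 in the knockout and at 5.63 in both Th2 arrays. It stood at 4.085 and 5.00 in Th1 and at 4.98 in both naive arrays, so Th1 replicate 1 was below the knockout. Knockout and Th2 replicates had nearly the same sorted values, so their agreement in the highest probe is not independent. A lower ceiling of signal on the knockout than on the Th2 arrays moved together with the lower signal at the bait. Its part in the difference was not tested.

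**Figure D2:**
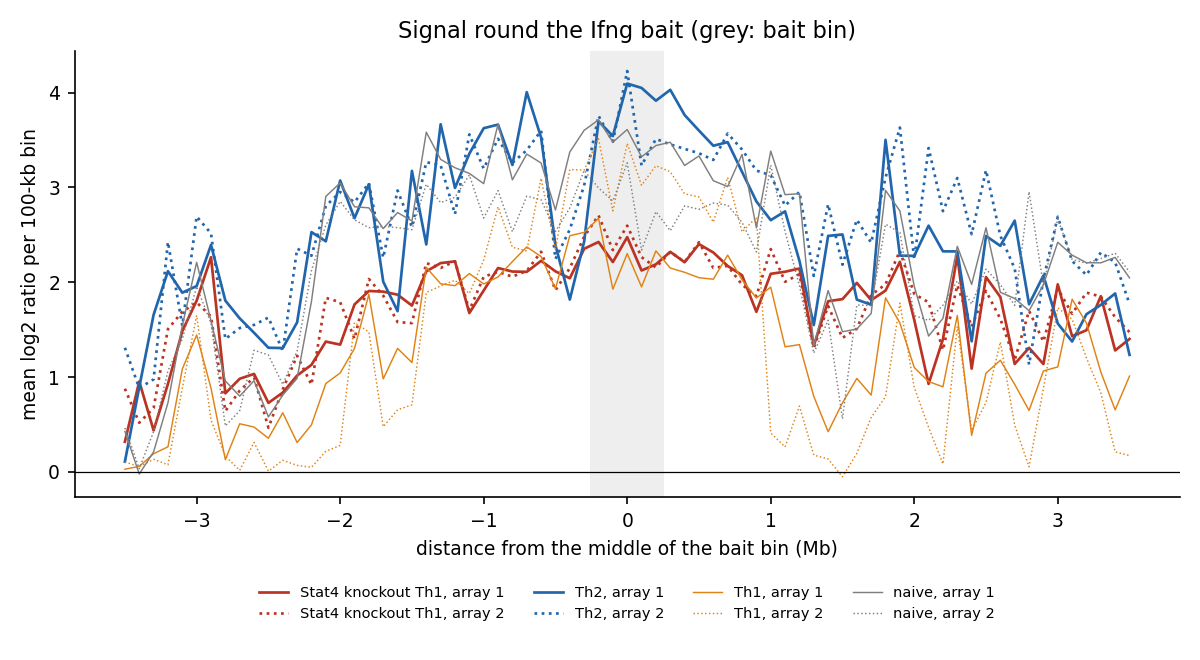
Mean log2 ratio per 100-kb bin within 3.5 Mb of the bait bin in the Stat4 knockout, Th2, Th1 and naive arrays, 1 line an array. Around the bait bin (grey) the knockout arrays rise no higher than 2.71 while both Th2 arrays rise above 4.

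On the centred values the deficit of the knockout shrank with distance. At 1 to 2 Mb from the bait bin the mean log2 ratio was 1.70 and 1.71 in the knockout, 2.48 and 2.76 in Th2, 1.15 and 0.69 in Th1 and 2.32 and 2.15 in naive arrays. All 4 bins of that class were called lower in the knockout, and the means differed by -0.92. The difference was -0.36 at 2 to 5 Mb, where 4 of 12 bins were called lower, and -0.21 at 5 to 10 Mb, where 5 of 20 were lower and 1 was higher. It was -0.11 at 10 to 20 Mb, where 5 of 24 bins were lower and 1 was higher, and -0.03 at 20 to 50 Mb, where 7 of 60 were lower and 5 higher, differences no larger than the spread between replicates. Beyond 50 Mb it was 0.05, and 14 of 129 bins were called higher and 1 lower. Single arrays moved these values. Without Th2 replicate 2 the difference was -0.22 at 2 to 5 Mb and -0.14 at 5 to 10 Mb. Without knockout replicate 1 it was -0.13 at 5 to 10 Mb, -0.01 at 10 to 20 Mb, 0.02 at 20 to 50 Mb and 0.03 beyond 50 Mb, where it was also 0.03 without Th2 replicate 1. Without knockout replicate 2 it was -0.21 at 10 to 20 Mb. After quantile normalization the difference was -0.10 at 1 to 2 Mb, -0.12 at 2 to 5 Mb and -0.14 at 5 to 10 Mb. It did not shrink over these classes and was -0.09 at 10 to 20 Mb. After scaling by the median absolute deviation it was -0.84 at 1 to 2 Mb and -0.34 at 2 to 5 Mb.

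The 26 lower bins formed 17 regions, and the 8 with the largest mean change are described here. Both large blocks lay 1.0 Mb from the bait bin on either side, in band 10qD2. That band holds Ifng itself, Il22, the gene of the barrier cytokine interleukin 22, and Iltifb, a close relative of Il22. The blocks lie outside the bait bin and the 1 Mb beside it, and which genes of the band they hold is not known here. The block from 114500001 to 116500000, 4 bins with 331 probes, stood at 1.47 and 1.46 in the knockout, 2.21 and 2.36 in Th2, 0.96 and 0.65 in Th1 and 1.97 and 1.92 in naive arrays. Its mean difference was -0.82 (SE 0.09 and limma adjusted p = 8.90e-07 in its best bin). The block from 119000001 to 120500000, 3 bins, stood at 1.67 and 1.68 in the knockout and 2.27 and 2.69 in Th2, a difference of -0.80 (SE 0.13, limma adjusted p = 0.000107). In both blocks the knockout arrays agreed closely with each other, lay below every Th2 and naive array and lay above both Th1 arrays. With the extreme probes left out the differences turned to 0.31 and 0.35. By its construction that setting takes more probes from the Th2 arrays than from the knockout arrays in the flanks, since more of the highest 1% lie there in Th2. Its part in the turned sign was not tested.

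The other 6 lower regions lay within 31.0 Mb of the bait bin. At 124500001 to 125000000 in band 10qD3 the knockout had 0.41 and 0.52 and Th2 1.04 and 1.46, a difference of -0.79 (SE 0.10, limma adjusted p = 0.000137). At 105500001 to 106000000 in band 10qD1 the knockout had -0.04 and 0.27 and Th2 0.99 and 0.53, while Th1 had 0.13 and 0.04 and naive arrays -0.06 and -0.04. Both Th2 arrays stood above all 6 of the others in that bin, and the Th2 arrays differed from each other by more than the knockout arrays did. The difference was -0.64 (SE 0.11, limma adjusted p = 0.00360). A neighbouring bin, at 104500001 to 105000000, had 0.40 and 0.59 in the knockout and 0.97 and 1.21 in Th2, a difference of -0.59. Over 22 other settings the call of this bin was lost in 4 and that at 105500001 in 5. Band 10qD1 also holds Syt1, a gene for a vesicle protein of neurons, and Kitl, the gene of the KIT ligand, but genes could be placed only in bands and not in bins.

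Nearer the bait, the region from 111000001 to 112000000 stood at 0.53 and 0.71 in the knockout and 1.14 and 1.25 in Th2, a difference of -0.57 (limma adjusted p = 0.000214 in its best bin). On the other side, 122500001 to 123500000 stood at 0.62 and 0.84 in the knockout and 1.05 and 1.29 in Th2, a difference of -0.44. That call was lost in 8 of 22 other settings, scaling by the median absolute deviation and quantile normalization among them (adjusted p up to 0.690). In 1 further setting the difference reversed. The most distant of the 8, at 86000001 to 86500000 in band 10qC1, stood at 0.53 and 0.66 in the knockout and 0.93 and 1.17 in Th2, a difference of -0.46 (limma adjusted p = 0.00724). That call was lost without knockout replicate 1 (limma adjusted p = 0.0619) or without Th2 replicate 2 (0.125), and over its 22 other settings the adjusted p ran from 0.00182 to 0.559. With the extreme probes left out, the differences of these last 3 regions turned to 0.03, 0.19 and 0.18. Over all 26 lower bins the median log2 ratio was 0.51 and 0.58 in the knockout, 0.98 and 1.19 in Th2, 0.30 and 0.17 in Th1 and 0.78 and 0.67 in naive arrays.

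The 21 higher bins formed 17 regions, at a median of 55.5 Mb from the bait bin and none nearer than 9.5 Mb. The 17 lower regions lay at a median of 12.5 Mb, and at most 63 Mb, from it, so both sets overlapped in distance. The largest difference was at 92500001 to 93000000 in band 10qC2, 24.5 Mb from the bait bin towards the centromere, a band that holds Socs2, a suppressor of cytokine signalling. The knockout arrays had 1.06 and 1.35 there and the Th2 arrays 0.47 and 0.28. Th1 arrays had 1.20 and 1.11 and naive arrays 1.29 and 1.62. The knockout arrays were within or beside the Th1 and naive levels and above both Th2 arrays, a difference of 0.83 (SE 0.10, limma adjusted p = 0.000107). Over 22 other settings this bin had differences between 0.68 and 1.02, and the adjusted p ran from 2.70e-06 to 0.210, with the call lost in 1 setting, the median of the probes.

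Higher bins were scattered among others that were not called. The bins on either side of this one, from 92000001 and 93000001, had differences of -0.17 and 0.03. Of the 14 other bins between 92000001 and 99500000, 3 more were called higher. At 94500001 to 95000000 the knockout had 0.90 and 1.31 and Th2 0.47 and 0.62, a difference of 0.56 (SE 0.09, limma adjusted p = 0.00360). At 95500001 to 96000000 it had 0.78 and 1.03 and Th2 0.41 and 0.35, a difference of 0.53 (SE 0.11, limma adjusted p = 0.0142). At 98500001 to 99000000 it had 1.04 and 1.48 and Th2 0.35 and 0.78, a difference of 0.70 (SE 0.12, limma adjusted p = 0.00586). In all 3 bins the Th1 arrays, between 0.73 and 1.11, and the naive arrays, between 0.89 and 1.36, were also above the Th2 means. The call at 95500001 was lost without knockout replicate 2 (limma adjusted p = 0.184) or Th2 replicate 2 (0.103), and that at 98500001 without knockout replicate 2 (0.0967) or Th2 replicate 1 (0.0815). Over 22 other settings their adjusted p ran from 0.000218 to 0.608 and from 0.000159 to 0.280.

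One higher region lay on the telomeric side. At 127500001 to 128000000 in band 10qD3, 9.5 Mb from the bait bin, the knockout had 1.02 and 1.10 and Th2 0.42 and 0.51. Th1 had 1.33 and 1.12 and naive arrays 1.42 and 1.41, so that the Th2 arrays alone were low. The difference was 0.59 (SE 0.06, limma adjusted p = 3.78e-05), and it held in 20 of 22 other settings, with adjusted p from 4.04e-07 to 0.193. Band 10qD3 holds Stat6, the gene of the transcription factor that acts downstream of interleukin 4, Stat2, which acts in type I interferon signalling, and Il23a, the gene of a subunit of interleukin 23. Which gene of the band lies in the bin is not known here.

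The higher regions towards the centromere had lower levels. The 4 bins from 38500001 to 40500000 in band 10qB1, 77 Mb from the bait bin, stood at 0.69 and 0.67 in the knockout, 0.30 and 0.26 in Th2, 0.45 and 0.30 in Th1 and 1.53 and 1.55 in naive arrays. Their mean difference was 0.40 (SE 0.05 and limma adjusted p = 3.94e-05 in the best bin). The call was lost in 2 of 22 other settings. These were the median of the probes (0.13, limma adjusted p = 0.261) and scaling by the median absolute deviation (0.40, 0.274). Band 10qB1 holds Fyn, the gene of a kinase of the T cell receptor pathway. At 28000001 to 28500000 in band 10qA4 the knockout had 0.64 and 0.66, Th2 0.13 and 0.06, Th1 0.38 and 0.33 and naive arrays 1.46 and 1.18. The knockout differed from Th2 by 0.55 (SE 0.07, limma adjusted p = 0.000137). That call was lost in the same 2 settings, with differences of 0.14 (limma adjusted p = 0.823) and 0.54 (0.193). At 80500001 to 81000000 in band 10qC1, a band with Gadd45b, Icosl and Itgb2, genes of a stress response protein, a costimulatory ligand and an integrin chain, the knockout had 0.67 and 0.69 and Th2 0.31 and 0.34. That difference of 0.36 (limma adjusted p = 0.0338) was not called when any 1 of the 4 arrays was left out, with adjusted p between 0.0745 and 0.172 there and between 0.000412 and 0.586 over 22 other settings. Over all 21 higher bins the median log2 ratio was 0.75 and 0.75 in the knockout, 0.37 and 0.31 in Th2, 0.54 and 0.41 in Th1 and 1.42 and 1.36 in naive arrays.

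Wider windows of chromosome 10 were taken from earlier results of these same arrays, that from 92000001 because the Th2 signal was low there, so their intervals describe the spread and test nothing independently. The proximal flank, from 111000001 to 116500000, had 0.85 and 0.96 in the knockout and 1.37 and 1.52 in Th2, a difference of -0.54 (95% interval -0.68 to -0.39). The distal flank, from 119000001 to 122000000, had 1.52 and 1.60 against 1.90 and 2.32, a difference of -0.55 (-0.78 to -0.32), and the outer distal flank, from 122500001 to 126500000, had 0.52 and 0.68 against 0.89 and 1.01, a difference of -0.35 (-0.48 to -0.22). With extreme probes left out these 3 differences were 0.10, 0.36 and 0.14, and after quantile normalization the distal flank stood at 0.01. Without Th2 replicate 2 the distal flank stood at -0.34. The highest 1% of an array's probes made up 12.4% and 13.8% of the proximal flank in the knockout and 29.1% and 27.5% in Th2. They made up 26.1% and 24.5% of the distal flank against 41.4% and 45.9%, and 7.75% and 8.51% of the outer distal flank against 19.8% and 19.0%. The highest 5% of probes differed less, with 37.6% and 38.9% against 41.0% and 50.7% in the proximal flank and 24.2% and 30.2% against 27.1% and 34.2% in the outer distal flank, and overlapped in the distal flank, with 65.3% and 68.0% against 54.1% and 71.8%.

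Among the distant windows, the one from 38500001 to 45500000 in bands 10qB1 and 10qB2 had 0.57 and 0.47 in the knockout and 0.36 and 0.27 in Th2, a difference of 0.20 (95% interval 0.09 to 0.31). Band 10qB2 holds Prdm1, the gene of the repressor Blimp-1. The window from 92000001 to 97000000 had 0.77 and 0.98 against 0.61 and 0.73, a difference of 0.21 (0.07 to 0.35), and without knockout replicate 2 it was 0.10. The window from 16500001 to 22500000, in bands 10qA2 and 10qA3, had 0.35 and 0.29 against 0.15 and 0.23, a difference of 0.13 (0.03 to 0.22). Band 10qA3 holds Ifngr1, the gene of a chain of the interferon gamma receptor, and Tnfaip3, the gene of the NF-kB inhibitor A20. In naive cells that window stood at 1.41 and 1.41, far above both the knockout and Th2. The windows from 57000001 to 63000000, whose band 10qB4 holds the perforin gene Prf1, and from 75000001 to 82000000 had differences of 0.08 and 0.08, with intervals that include 0 (-0.02 to 0.18 and -0.03 to 0.18). The windows from 106000001 to 107500000 and from 127500001 to 130000000 had -0.03 (-0.17 to 0.12) and 0.08 (-0.04 to 0.20).

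**Figure D3:**
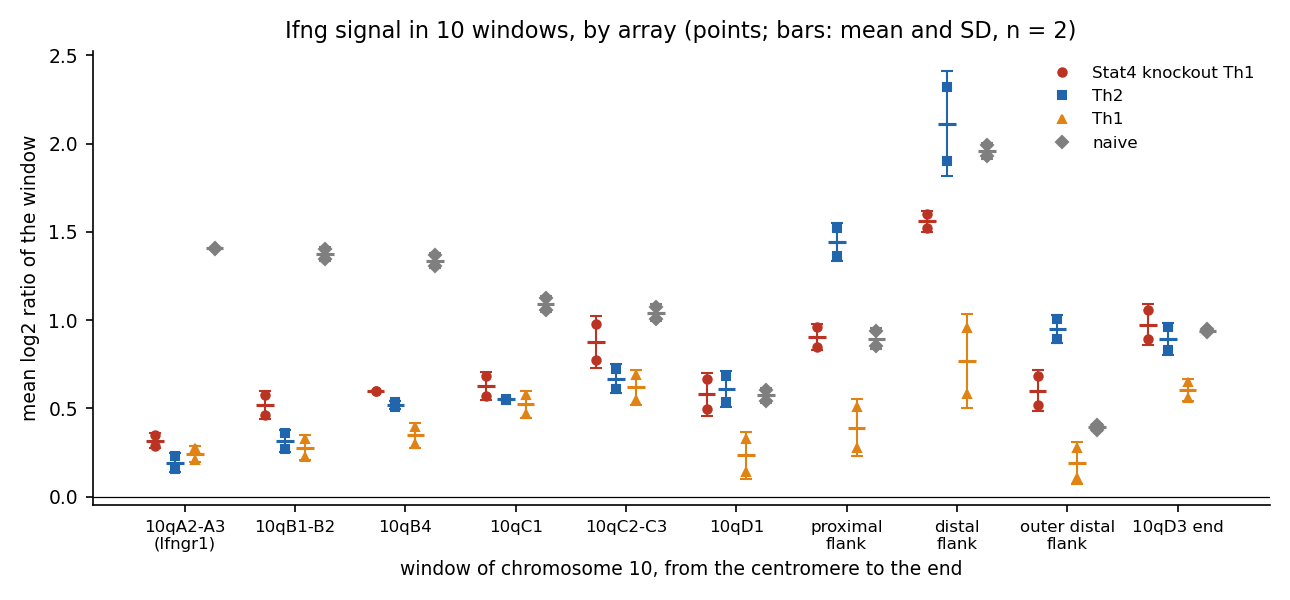
Mean log2 ratio of 10 windows of chromosome 10 in each Stat4 knockout, Th2, Th1 and naive array (points), with the group mean and SD (bars, n = 2). In the 3 flanks the knockout lies between Th1 and Th2, and in the window with Ifngr1 the naive arrays stand at 1.41, above all others.

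Lists of contact bins overlapped in large part. A bin was counted as a contact of a group where both of its arrays had more than their share of the highest 5% of probes, by a one-sided binomial test with Benjamini-Hochberg adjustment over bins. On chromosome 10, 123 of 249 bins (49.4%) were contacts in the knockout and 101 (40.6%) in Th2. They shared 84 bins, 68.3% of the knockout list and 83.2% of the Th2 list. With the 58 contacts of Th1 cells the knockout shared 56 bins, and with the 140 of naive cells it shared 100. Where a Th1 array was left out, a Th1 contact rested on 1 array only, a looser definition. The knockout then shared 94 of 104 Th1 contacts without Th1 replicate 2 and 56 of 59 without Th1 replicate 1. Off chromosome 10, 2 bins (0.0419%) were contacts in both knockout arrays, in bands 1qE4 and 8qC2, and 0 in both Th2 arrays (0%). On chromosome 10, 18 bins were contacts in both knockout arrays and in no Th2 array, and 9 of these were also called higher in the fit. They included 5 bins between 18500001 and 22000000 in band 10qA3, the band of Ifngr1 and Tnfaip3. In the bin from 39500001 to 40000000 in band 10qB1 the knockout arrays had 0.83 and 0.83 and the Th2 arrays 0.37 and 0.30. The 3 bins that were contacts in both Th2 arrays and in no knockout array began at 58000001, 78500001 and 105500001, and the last was called lower. Counting the highest 2% of probes turned this balance, with 2 bins in the knockout alone and 21 in Th2 alone, and counting the highest 10% gave 31 and 1.

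Compared as whole profiles of chromosome 10, the knockout arrays resembled both Th2 and Th1 arrays less than they resembled each other. Over the 249 bins of chromosome 10, which share arrays and neighbours, r was 0.924 between the knockout replicates and 0.946 between the Th2 replicates. It lay between 0.802 and 0.831 for the 4 pairs of a knockout and a Th2 array, between 0.749 and 0.870 for knockout and Th1 arrays (0.850 and 0.870 without Th1 replicate 2) and between 0.668 and 0.784 for knockout and naive arrays. Th1 and Th2 arrays had r between 0.483 and 0.619, or 0.609 and 0.619 without Th1 replicate 2. Off chromosome 10 the knockout and Th2 arrays had r between 0.325 and 0.532, a range that includes the 0.461 between the knockout replicates. Knockout and naive arrays had r between 0.421 and 0.569 there. In the same fit 95 bins were called between the knockout and Th1 (1.89%) and 458 between the knockout and naive cells (9.12%), comparisons that share the knockout arrays with the one against Th2. Of the 95 bins 94 were higher in the knockout, and without Th1 replicate 2 30 bins were called, 28 of them higher. Scaling by the median absolute deviation left 9 bins against Th1, 2 higher and 7 lower, and 48 against naive cells, and quantile normalization left 27, 16 higher and 11 lower, and 59.

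Where Th1 and Th2 cells differed, the knockout mostly lay between them. The 133 bins called between Th1 and Th2 (2.65%) were chosen by Th1 and Th2 values, so the position of the knockout in them is given as counts with no test. In the 95 bins of chromosome 10 that were lower in Th1, the knockout mean was between both means in 86 and nearer to Th2 in 68 and to Th1 in 27. The median log2 ratio of these bins was 0.44 and 0.58 in the knockout, 0.69 and 0.74 in Th2 and 0.21 and 0.09 in Th1 arrays. In the 11 bins of chromosome 10 that were higher in Th1 the knockout was nearer to Th1 in 9 and to Th2 in 2, with medians of 0.67 and 0.75 in the knockout, 0.93 and 0.94 in Th1 and 0.41 and 0.33 in Th2. In the 26 bins off chromosome 10 that were lower in Th1 it was nearer to Th2 in 15 and to Th1 in 11. Off chromosome 10, 1 bin was called lower in Th1 after scaling by the median absolute deviation. After quantile normalization 12 were, with the knockout nearer to Th2 in 6. Few bins there were called lower in Th1 when either Th1 array was left out.

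This position depended on the arrays and on the scaling. Without Th1 replicate 2, 63 bins of chromosome 10 were called lower in Th1, and the knockout was nearer to Th2 in 34 and to Th1 in 29. In the 9 higher bins it was nearer to Th1 in 5 and to Th2 in 4. Without Th1 replicate 1 the counts were 66 and 21 of 87 lower bins. After scaling by the median absolute deviation the knockout was nearer to Th2 in 15 of 38 lower bins and in 12 of 15 higher bins, and after quantile normalization in 24 of 46 and in 12 of 35.

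Off chromosome 10 the knockout was higher than Th2 in 14 regions, and levels there were low. The largest difference was on chromosome 8 from 84500001 to 85000000 in band 8qC2, with 92 probes. The knockout arrays had 0.50 and 0.41 and the Th2 arrays -0.05 and -0.08, with 0.09 and 0.20 in Th1 and 0.50 and 0.33 in naive arrays. The difference was 0.52 (SE 0.06, limma adjusted p = 8.79e-05), and it held in 21 of 22 other settings, with adjusted p from 1.59e-06 to 0.252. On chromosome 7 from 105500001 to 106500000 in band 7qE3 the knockout had 0.50 and 0.32 and Th2 -0.01 and 0.04, a difference of 0.39 (SE 0.06 and limma adjusted p = 0.00419 in its best bin). On chromosome 12 from 115500001 to 116000000 in band 12qF2 the knockout had 0.29 and 0.29 and Th2 -0.05 and -0.10, a difference of 0.36 (limma adjusted p = 0.00715), which was not called without Th2 replicate 2 (0.0716; 0.000412 to 0.387 over 22 settings). On chromosome 7 from 42500001 to 43000000, in a bin of 25 probes, the knockout had 0.15 and 0.33 and Th2 -0.04 and -0.03, and that call was lost without knockout replicate 2 or either Th2 array, with adjusted p between 0.00269 and 0.691 over 22 settings. The Il4-bait arrays of Stat6 knockout Th2 cells, the other arrays of the serial series 411, were also high in several of these regions. On chromosome 8 in band 8qC2 they had 0.31 and 0.33 against at most 0.03 in the other 6 Il4-bait arrays.

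**Figure D4:**
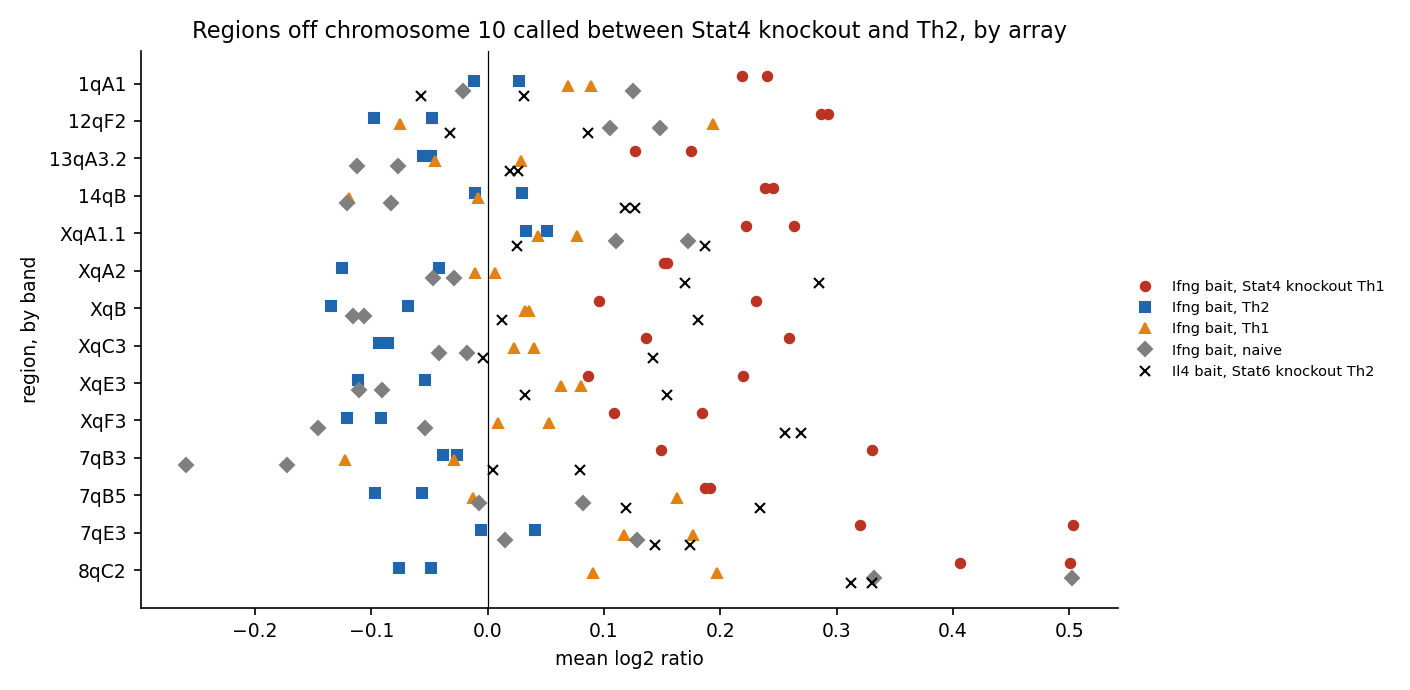
Mean log2 ratio by array in the 14 regions off chromosome 10 called higher in the Stat4 knockout than in Th2, by band, for the Ifng bait in 4 T cell groups and for the Il4 bait in Stat6 knockout Th2 cells. In band 8qC2 the naive Ifng arrays (0.50 and 0.33) and the Stat6 knockout Il4 arrays (0.31 and 0.33) are high as well.

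Of these 14 regions 6 were on the X chromosome, where the whole chromosome was shifted. The mean log2 ratio of its 292 bins was 0.07 and 0.18 in the knockout and 0.01 and 0.02 in Th2, and 94.2% of the bins were higher in the knockout. On the 5 bins of the Y chromosome knockout replicate 2 had -0.10, against 0.10 in replicate 1 and 0.07 and 0.14 in Th2. On the other 18 autosomes the mean difference was between 0.01 and 0.03, and between 52.3% and 65.2% of bins were higher. The largest of the X regions, from 91500001 to 92000000 in band XqC3, had 0.14 and 0.26 in the knockout and -0.09 and -0.09 in Th2, a difference of 0.29 (limma adjusted p = 0.00389), which was not called without knockout replicate 2 (0.0526; 0.000700 to 0.0952 over 22 settings). Stat6 knockout replicate 2 of the Il4 bait also had 0.18 on the X chromosome. On the Y chromosome, however, it had 0.15, against -0.05 in Stat6 knockout replicate 1. When X and Y were centred on their own medians, an alternative chosen after these values were seen, 9 bins off chromosome 10 were called and chromosome 10 kept its counts of 21 higher and 26 lower bins. The cause of the shift was not tested.

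**Figure D5:**
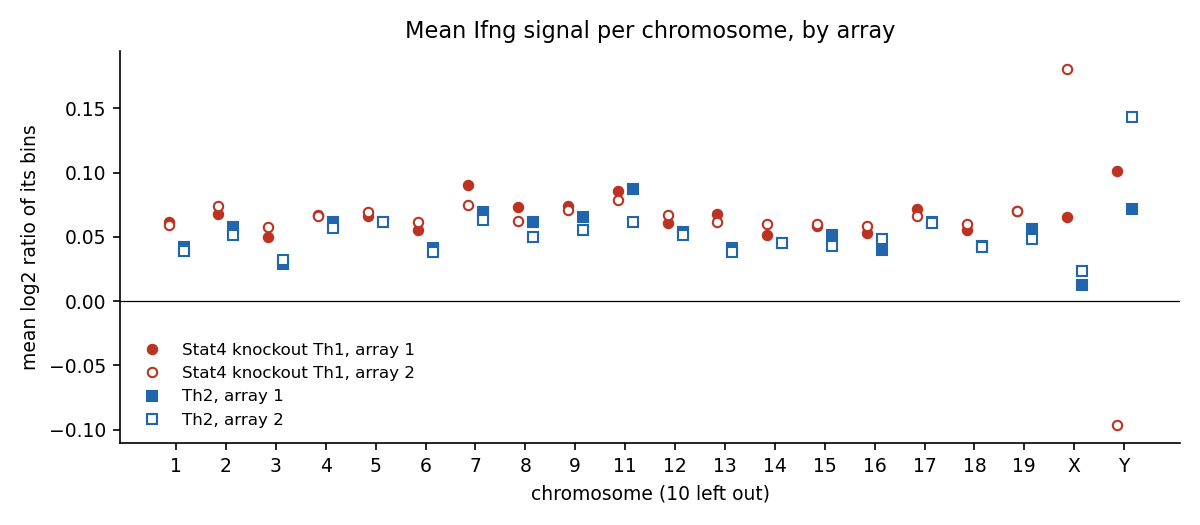
Mean log2 ratio of the bins of each chromosome other than 10 in the 2 Stat4 knockout and the 2 Th2 arrays. Knockout replicate 2 stands apart on the X chromosome (0.18) and on the Y chromosome (-0.10).

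Genes were compared through the cytogenetic band that holds them. Of 401 bands, 0 were called in limma (0%), and 62 (15.5%) had an unadjusted p under 0.05, 56 higher and 6 lower in the knockout. The lowest adjusted p was 0.102, and without knockout replicate 1 26 bands were called. Band 10qD2, with Ifng, Il22 and Iltifb, had 1.04 and 1.17 in the knockout and 1.45 and 1.69 in Th2, a difference of -0.47 (SE 0.10, limma adjusted p = 0.102). Its mean left out the bait bin and 1 Mb on each side, so it does not give the signal at the bait itself. Band 10qA3, with Ifngr1 and Tnfaip3, had 0.35 and 0.29 against 0.15 and 0.20, a difference of 0.14 (SE 0.03, limma adjusted p = 0.106). Band 10qB1, with Fyn, had 0.32 and 0.31 against 0.15 and 0.18, a difference of 0.15 (SE 0.03, limma adjusted p = 0.102). Band 10qD3, with Stat6 and Stat2, had a difference of -0.11 (SE 0.06), 10qB2 with Prdm1 0.07 (SE 0.03) and 10qB4 with Prf1 0.04 (SE 0.03).

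The bands of 6 lineage genes on other chromosomes, chosen for their known roles, stood at 0.19 or lower in the knockout and Th2 arrays. For Tbx21, the gene of the Th1 master regulator T-bet, in band 11qD the log2 ratio was 0.10 and 0.10 in the knockout and 0.11 and 0.09 in Th2. For Gata3, the gene of the Th2 master regulator, in band 2qA1 it was 0.06 and 0.07 against 0.05 and 0.03. For Il4 in band 11qB1.3 it was 0.10 and 0.08 against 0.12 and 0.08, and for Stat4 itself in band 1qC1.1 it was 0.04 and 0.06 against 0.02 and 0.01. Differences at Il12rb2, the gene of an interleukin 12 receptor chain in band 6qC1, and at Runx3, the gene of a partner of T-bet in band 4qD3, were 0.02 and -0.05. None of these 6 bands was called, with limma adjusted p between 0.447 and 0.989. Other bands of the Th1 and Th2 lists off chromosome 10 differed more, although none was called. The 4 with an unadjusted p under 0.05 were those of Il27ra, the gene of an interleukin 27 receptor chain (8qC2, 0.10, limma adjusted p = 0.102), and Irf4, the gene of a transcription factor of activated T cells (13qA3.2, 0.07, 0.117), and those of Txk, the gene of a kinase of the T cell receptor pathway (5qC3.2, 0.06, 0.127), and Cxcr3, the gene of a chemokine receptor of Th1 cells (XqD, 0.11, 0.189). The band of Cxcr3 lies on the X chromosome, which was shifted as a whole.

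Of 121 listed genes, 108 could be placed in a band. The 24 placed Th1 programme genes lay in 19 bands, of which 0 were called, 5 had an unadjusted p under 0.05 and 16 were higher in the knockout. The median difference of these bands was 0.02, as over all 401 bands, where it was 0.02 and 292 were higher. The 20 Th2 programme genes lay in 16 bands with a median of 0.01 and 0 called, 1 at an unadjusted p under 0.05. The 22 JAK-STAT and SOCS genes lay in 17 bands with a median of 0.01 and 0 called, 3 at an unadjusted p under 0.05. The 41 immune genes of chromosome 10 lay in 9 bands with differences from -0.47 to 0.15, 0 called and 4 at an unadjusted p under 0.05. The 10 housekeeping genes lay in 10 bands with a median of 0.02, 0 called and 2 at an unadjusted p under 0.05.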

How the data were processed

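The 4 compared arrays and the other 6 Ifng arrays were grouped by title and source name. Per the labels' protocols, HindIII and then Csp6I fragments were ligated, bait-linked DNA was amplified by PCR and carried Cy5, and genomic DNA digested alike carried Cy3. The deposited values are one log2 ratio a probe (the base is assumed to be 2). Scanner software, normalization and genome build are not given in the sources used here; mm8 was inferred because 0 of 21 chromosomes had probes past their mm8 end. The protocol speaks of adherent cells and of other baits, and the design text mentions a pooled array that no label identifies.

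Probe values were shifted so that the median off chromosome 10 was 0 in every array, then averaged over 500-kb bins (20 probes or more), and the bait bin with 1 Mb on each side was left out. All 10 arrays entered 1 limma fit (limma 3.58.1, R 4.3.3; lmFit, contrasts.fit, eBayes), tested two-sided and adjusted by Benjamini-Hochberg over every bin, with 0.05 as the threshold. Runs of adjacent bins called the same way formed regions; the change given is their average, and the SE and adjusted p belong to the bin with the lowest p. Named regions are the largest in mean change among those whose 4 arrays do not overlap, at most 8 a direction on chromosome 10 and 5 elsewhere. With 2 arrays against 2 an exact permutation test has a smallest p of 0.333, so windows and distance classes carry no p; window intervals are 95% intervals of the limma fit on window means. Genes were placed in bands (circlize 0.4.16) from RefSeq positions of GRCm38, 500 kb or more inside a band, and the gene lists were run on bands for want of mm8 gene positions. Band means also left out the bait bin with 1 Mb on each side. The fit was tested on simulated data with 200 changed bins.

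Alternatives were other bin sizes, the median of a bin, 2 scalings, another centring, probe and bait filters, eBayes settings, other sets of samples, the replicate block and single arrays left out. Chosen after seeing the data were equal SD on chromosome 10, X and Y centred apart, scalings combined with other settings, arrays of other Ifng groups left out, placement and Th1 comparisons without each Th1 array, other scalings of the comparisons with Th1 and naive cells, shares of the highest probes, and the check of Il4-bait arrays. Members, windows and gene lists were chosen with earlier results of these data known. Further tools were matplotlib 3.10.9, scipy 1.17.1, pandas 2.3.3, numpy 2.4.6 and Python 3.11.15.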

Additional observations from a re-analysis of the deposited data

Results flagged for a closer look

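The Il4-bait arrays are outside the comparison, and their values in the 14 regions off chromosome 10 were examined after the regions were seen. In 7 of them both Stat6 knockout arrays, which share the leading serial digits 411 with the Stat4 knockout arrays, lay above all 6 other Il4-bait arrays. Their mean log2 ratio was 0.321 on chromosome 8 from 84500001 (highest other array 0.03), 0.159 and 0.176 in the chromosome 7 regions that start at 105500001 (0.02) and 58500001 (0.08), and 0.122 in the chromosome 14 region at 42500001 (0.10). On the X chromosome it was 0.227 from 23000001 (0.01), 0.0964 from 78000001 (-0.01) and 0.262 from 149500001 (-0.01). The mean of all X bins was itself higher in these arrays, at 0.03 and 0.18, than in the 6 others (at most 0.01). The number of such regions that unselected bins would give was not tested, so the 7 cannot be set against a share over all bins. Over 4237 bins of the other autosomes the Ifng difference of Stat4 knockout minus Th2 and the Il4 difference of Stat6 knockout minus Th1, also 411 against 401 arrays, had r = 0.164.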

How the results depend on the processing

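Called bins numbered 62, of which 21 were higher and 26 lower on chromosome 10 and 15 higher off it. With the median of the probes these counts were 9, 3, 4 and 1, with scaling by the median absolute deviation 6, 3, 1 and 2, and with quantile normalization 25, 14, 8 and 3. Leaving out extreme probes gave 48 higher and 1 lower on chromosome 10 and 26 off it. The trend and robust setting of eBayes gave 8, 14 and 43. Bins of 1000 kb gave 16 lower, and no minimum of probes 8 off chromosome 10. With only the knockout and Th2 arrays 6 were called off chromosome 10. The replicate block gave 68 calls (21, 28 and 19), 60 of them shared with the fit without it, and changed no window difference. Same-numbered deviations had r = 0.168 on chromosome 10 and 0.0688 off it, over 2 pairs that share only a number.

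Leaving out each array in turn gave 37 to 112 calls, 14 to 16 higher and 14 to 36 lower on chromosome 10 and 5 to 72 off it; the count of 112 came without knockout replicate 1 and that of 37 without Th2 replicate 2. Of the alternatives chosen after seeing the data, scaling by the median absolute deviation on only the 4 arrays gave 15 (9, 3 and 3), with the replicate block 4 (2, 0 and 2) and without each array in turn 1 to 16 (1, 0 to 14 and 0 to 1; the highest count came without Th2 replicate 1). Quantile-normalized bins of only the 4 arrays gave 32 (15, 13 and 4). Equal SD gave 35 higher and 8 lower, or 40 and 10 on only the 4 arrays, and X and Y centred apart 9 off chromosome 10. Leaving out arrays of other Ifng groups gave 53 to 73 calls. Bands called were 0, or 26 without knockout replicate 1.

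With extreme probes left out, 5 named lower regions reversed, beginning at 86000001 (0.18), 111000001 (0.031), 114500001 (0.31), 119000001 (0.35) and 122500001 (0.19), as did the proximal, distal and outer distal flanks (0.10, 0.36 and 0.14); the distal flank was 0.0079 after quantile normalization. The named higher regions on chromosome 10 and those off it reversed in 0 settings. Bins called between Th1 and Th2 with the knockout nearer to Th2 numbered 85 of 133, 34 of 61 with scaling by the median absolute deviation, 53 of 105 with quantile normalization, 40 of 76 without Th1 replicate 2 and 71 of 98 without Th1 replicate 1. Leaving out the highest 1% of probes removes more of the flanks in Th2 than in the knockout by construction, and its part in the reversals was not tested. The causes of the other changes were not tested either. Each group had 2 arrays, and values off chromosome 10 were close to 0.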
